A study of Mus musculus with 6 samples.

Results

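The Rab genes encode the small GTPases that give each membrane compartment of a cell its identity. Members were the genes whose symbol is Rab followed by a number and, at most, a letter and a further digit, and 59 of the 19401 genes listed in at least 1 library met this rule. Rab-interacting genes with longer symbols, such as Rabgef1, are therefore not members. The libraries were made from the retina plus retinal pigment epithelium (RPE) of 5XFAD mice at 9 months of age. 5XFAD mice are hemizygous on the B6SJL background for transgenes of mutant human amyloid precursor protein and presenilin, both driven by the neuronal Thy1 promoter, and control and treated mice carried them alike. The 3 efavirenz (EFV) libraries came from mice given this anti-HIV drug, an activator of the cholesterol 24-hydroxylase CYP46A1 at low dose, in drinking water from 3 to 9 months of age, at 0.08 mg/kg of body weight per the labels, whereas the methods of the study state a slightly higher daily dose. The 3 control libraries came from mice without the drug, labelled untreated. Per the methods of the study, these mice received the same aqueous detergent vehicle. Each library was a pool of 5 to 6 mice, all of them males per the methods of the study. Differences between replicates are therefore differences between pools and not between single animals.

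A Rab protein is a switch. Bound to GTP it sits on a membrane and recruits effectors that form, move, tether or fuse vesicles, and bound to GDP it is extracted into the cytosol by a GDP dissociation inhibitor (GDI). Guanine nucleotide exchange factors (GEFs) turn it on and GTPase-activating proteins (GAPs) turn it off. The retina depends on this traffic in several places: photoreceptors carry membrane proteins from the Golgi to the outer segment with the help of Rab8 and Rab11, their ribbon synapses release transmitter with Rab3, and the pigment epithelium moves melanosomes with Rab27a. Loss of the Rab escort protein encoded by Chm, which presents Rabs for lipid modification, causes choroideremia, a degeneration of photoreceptors, pigment epithelium and choroid.

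Membrane attachment is written in the last codons of each gene, where cysteines carry the lipid. In the last 5 coding codons, 20 members had the order cysteine, another residue, cysteine, 15 had 2 adjacent cysteine codons at the very end, 15 had 2 adjacent cysteine codons a little before it, and 9 had 1 cysteine codon 4 positions from the end, the place of a CaaX box. The last 30 coding bases (stop codon left out, GENCODE M21 transcripts on GRCm38) of members described below are shown for these classes, with cysteine codons in capitals.
Rab6a, chr7:100639287-100639316, plus strand: caaccagtcaatgaaggcggcTGTtccTGC
Rab6b, chr9:103181214-103181243, plus strand: cccccggccagcgagggcggcTGCtccTGT
Rab3a, chr8:70758056-70758085, plus strand: caggcgccacctcatcaggatTGTgccTGC
Rab7, chr6:88000438-88000467, minus strand: gccaaggcctccgcagaaagcTGCagtTGT
Rab27a, chr9:73095424-73095453, plus strand: gaggagaaggagaaggggttgTGTggcTGT
Rab2a, chr4:8606471-8606500, plus strand: ggcggacagcaggcagggggaggcTGCTGT
Rab11a, chr9:64716852-64716881, minus strand: aagccaaaggtgcagTGCTGTcagaacatc
Rab28, chr5:41625773-41625802, minus strand: cctcctcggagctccatgTGTgcagtgcag
Rab8a, chr8:72180105-72180134, plus strand: aggaccagcttcttccggTGCagtctcctg
Rab40c, chr17:25883631-25883660, minus strand: aacTGCtctcggagcaacTGCaagatctcc
The first 5 end in the cysteine, other, cysteine order, and Rab2a ends in its cysteine pair. Rab11a has a few codons behind the pair, and Rab28, Rab8a and Rab40c belong to the class with a CaaX position.

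The estimated counts summed to between 23455167 and 24590278 per library. Rod markers were abundant in every library (Gnat1, which encodes rod transducin, between 7554.81 and 8156.55 FPKM, the level of a gene scaled to its length and to the depth of the library), as the tissue label requires. Several marker lists moved between libraries. The 15 RPE markers, none of them at 0 in any library, had their lowest sum in control 2 (241.5 FPKM against 279.7 to 295.8 in the other controls and 280.2 to 293.0 with EFV), where Rpe65 had 2.35 FPKM against 4.65 to 6.69 elsewhere. Most of this sum was Rlbp1 (208.16 to 231.59 FPKM), a gene that is also on the Müller cell list, so the sum understates moves of the other RPE markers. Ttr, the next highest, had 14.50 FPKM in control 2 and 27.82 to 34.41 FPKM elsewhere. Rlbp1, Best1, Tyr, Slc45a2 and Mitf did not have their lowest value in control 2. The 13 lens markers summed to 3764 FPKM in control 3 and to between 31.2 and 174.0 in the other 5 libraries. The 4 Y-linked genes summed to 25.2 FPKM in EFV 3 and to between 51.9 and 69.8 in the others, although all pools are described as male. Xist is not among the genes listed in the libraries, and the sex of the mice in EFV 3 was not tested. By the limits used below, 2 of 14 RPE genes tested were higher with EFV and 11 of 11 lens genes lower. The cone, Müller cell, microglia and endothelium lists had no gene past them, although the 9 microglia markers summed to 21.23 to 23.16 FPKM in control and 20.06 to 21.04 FPKM with EFV, without overlap, and 0 of 7 endothelium genes were higher with EFV. Further, a fibroblast and matrix list, at 2.55 to 3.88 FPKM in all, had 1. The part of these differences in the Rab values was not tested beyond the fits given below.

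The Rab genes spanned a wide range of levels. Rab3a, the synaptic vesicle Rab, was the highest, with 247.0, 234.9 and 229.7 FPKM in control libraries 1 to 3 and 226.7, 230.3 and 249.2 FPKM in EFV libraries 1 to 3. Rab7, which takes endosomes to the lysosome, came next at 105.4 to 115.8 FPKM, so the lowest library of Rab3a lay well above the highest of Rab7. The following 8 members, in order of their mean, were Rab28, Rab2a, Rab1b, Rab5c, Rab14, Rab6b, Rab6a and Rab1a, with values from 54.62 to 86.13 FPKM. The ranges of neighbours in this order overlapped, except that the lowest library of Rab2a (72.86 FPKM) lay just above the highest of Rab1b (72.30 FPKM). These 10 genes held 63.05% of the summed FPKM of the family. In all, 2 members had a mean of at least 100 FPKM, 27 lay between 10 and 100, 22 between 1 and 10, and 8 under 1.

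**Figure D1:**
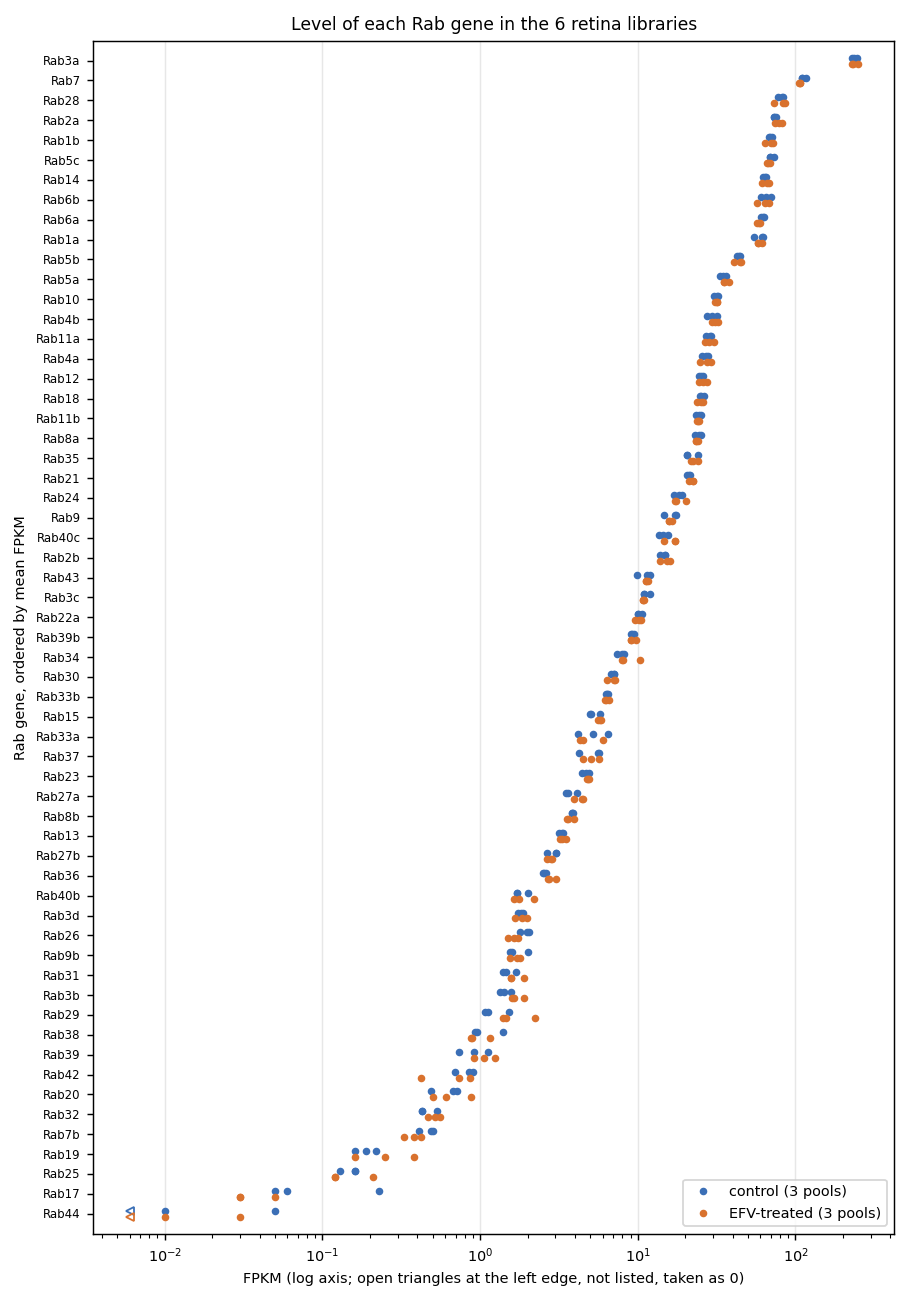
FPKM (log axis) of each of the 59 Rab genes in the 3 control and 3 EFV libraries, ordered by mean. Each dot is 1 library, and open triangles at the left edge are libraries that do not list Rab44, taken as 0. Levels run from Rab3a, at 226.7 to 249.2 FPKM, down to Rab44, and the dots of both groups lie together for the abundant genes.

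The 4 members of lowest mean level had few counts in every library. Rab25 and Rab17, which serve recycling in polarized epithelia, had 3 to 5 and 1 to 10 counts per library. Rab19 had 5 to 12 counts and Rab44, a large Rab of immune and secretory cells, had 0 to 5 (not listed, and taken as 0, in control 2 and EFV 2). These 4 members did not reach 10 counts in 3 libraries and were not tested, which leaves 55. The 10 counts of Rab17 were in control 3, the library with the lens markers, and the other 5 libraries had 1 or 2.

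The family as a whole had nearly the same level in both groups. Its FPKM values summed to 1429, 1412 and 1389 in the controls and to 1403, 1393 and 1424 with EFV, that is 1410 ± 19.8 against 1407 ± 15.9 (SD, n = 3), and the 2 groups overlapped. This was 0.385 to 0.399% of the FPKM of a library. By compartment, the 16 Rabs of the endoplasmic reticulum (ER) and Golgi made up 29.8% of the sum, with 420.2 ± 8.08 FPKM in control and 419.3 ± 11.4 with EFV (SD, n = 3). The 16 Rabs of early and recycling endosomes followed with 27.2%, with 381.8 ± 4.13 and 385.1 ± 4.39 FPKM (SD, n = 3). The 9 Rabs of regulated secretion held 18.8%, of which Rab3a was the largest part. The 8 Rabs of late endosomes, lysosomes and autophagy summed to 176.2, 179.9 and 172.0 FPKM in control and 169.9, 168.8 and 174.9 FPKM with EFV, where EFV 3 lay within the range of the controls. The 6 Rabs of exocytosis, polarity and the cilium summed to 148.6 ± 1.12 and 148.0 ± 8.10 FPKM (SD, n = 3), and the wider spread with EFV came with a lower value in EFV 3, 138.8 FPKM.

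In the 9 groups of paralogs plotted here, the genes kept their order of level in every library, except that Rab6a and Rab6b, and the minor forms Rab3b and Rab3d, changed places between libraries. Rab1b and Rab1a were close to even, at 69.2 and 59.5 FPKM in control. Rab2a had 73.9 of the 88.4 FPKM of both Rab2 genes in control, and Rab3a had 237.2 of the 251.8 FPKM of the 4 Rab3 genes. Rab8a, the form linked to transport to the outer segment, had 24.2 of 28.0 FPKM, and Rab11a and Rab11b had 28.4 and 24.2 FPKM. The 3 Rab5 genes of early endosomes had 70.3 (Rab5c), 43.5 (Rab5b) and 34.7 (Rab5a) FPKM in control.

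**Figure D2:**
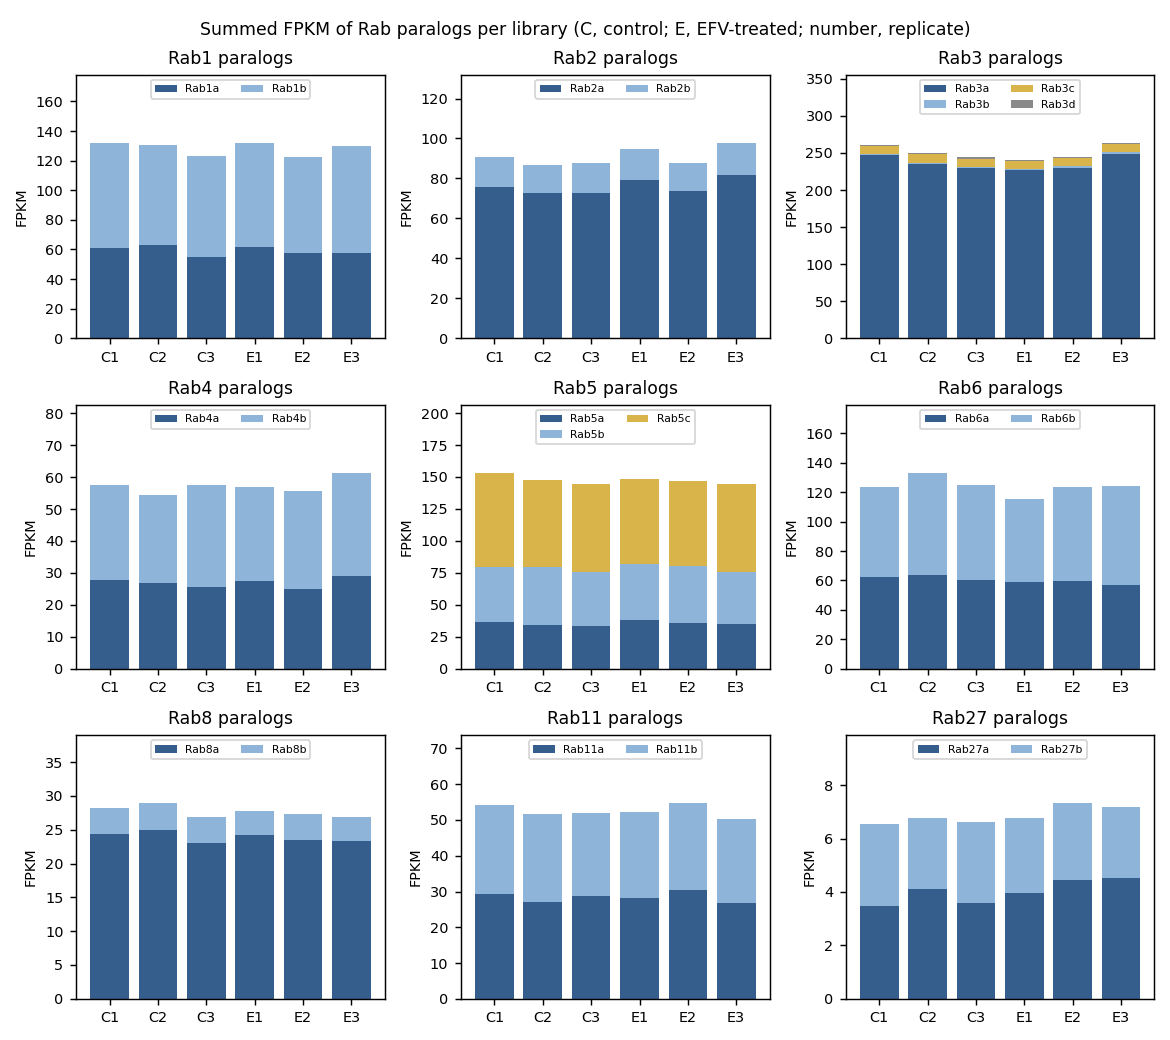
Summed FPKM of 9 groups of Rab paralogs in control libraries C1 to C3 and EFV libraries E1 to E3, with 1 colour per gene and axes that start at 0. The colours keep the same order of size within most groups in each library, and the Rab6 sum is lowest in E1 at 115.6 FPKM.

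The comparison of EFV with control asks which Rab genes differed in RNA after the treatment. Counts of each gene were compared by edgeR (quasi-likelihood test). A gene was counted past the limits at an unadjusted p of 0.05 or less with a change of at least 7% (the higher group over the lower), the size limit that the study used. Of the 55 Rab genes tested, 24 were higher and 31 lower with EFV, with a median log2 fold change of -0.01 against 0.00 over all genes. Past the limits were 2 members, Rab40c (higher) and Rab6a (lower), against a background of 3.01% of the 15537 genes tested (1.47% higher and 1.54% lower). The 2 of 55 are 3.64%, a share near that background. No member passed an adjusted p of 0.05, nor did any gene (0%): the adjusted p by edgeR was at least 0.999 for every Rab gene and 0.323 at its lowest among all genes. DESeq2 and limma on log2 FPKM also had 0 members past it. At an unadjusted p of 0.05, edgeR found 2 members (and 472 genes in all), DESeq2 1 and limma 1. A Poisson model, the kind of model the study used, put 5 members past the limits (Rab6a, Rab40c, Rab27a, Rab29 and Rab3b) and 8 past an adjusted p of 0.05, against 14.8% and 13.1% of all genes under that model. It takes no account of spread between pools beyond counting. The list of differentially expressed genes in the paper is far shorter than the set called by this model, and Rab6a is the only Rab member on it.

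The edgeR interval of each fold change bounds how large a difference could be. Its spread is estimated from the member with information from the other genes. The 95% interval lay between a level 20% lower and a level 25% higher with EFV for 39 of the 55, including all 29 with a mean of at least 10 FPKM, and between 33.3% lower and 50% higher for 47. Among those 29 genes the coefficient of variation over the 6 libraries had a median of 4.40% (2.14 to 9.48%), against 4.79% for the 6648 genes tested at that level. The log2 fold changes ran from -0.31 for Rab7b to 0.42 for Rab29, and both ends were genes near or under 1 FPKM. For these low genes a difference was not detectable at this depth unless it was large.

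**Figure D3:**
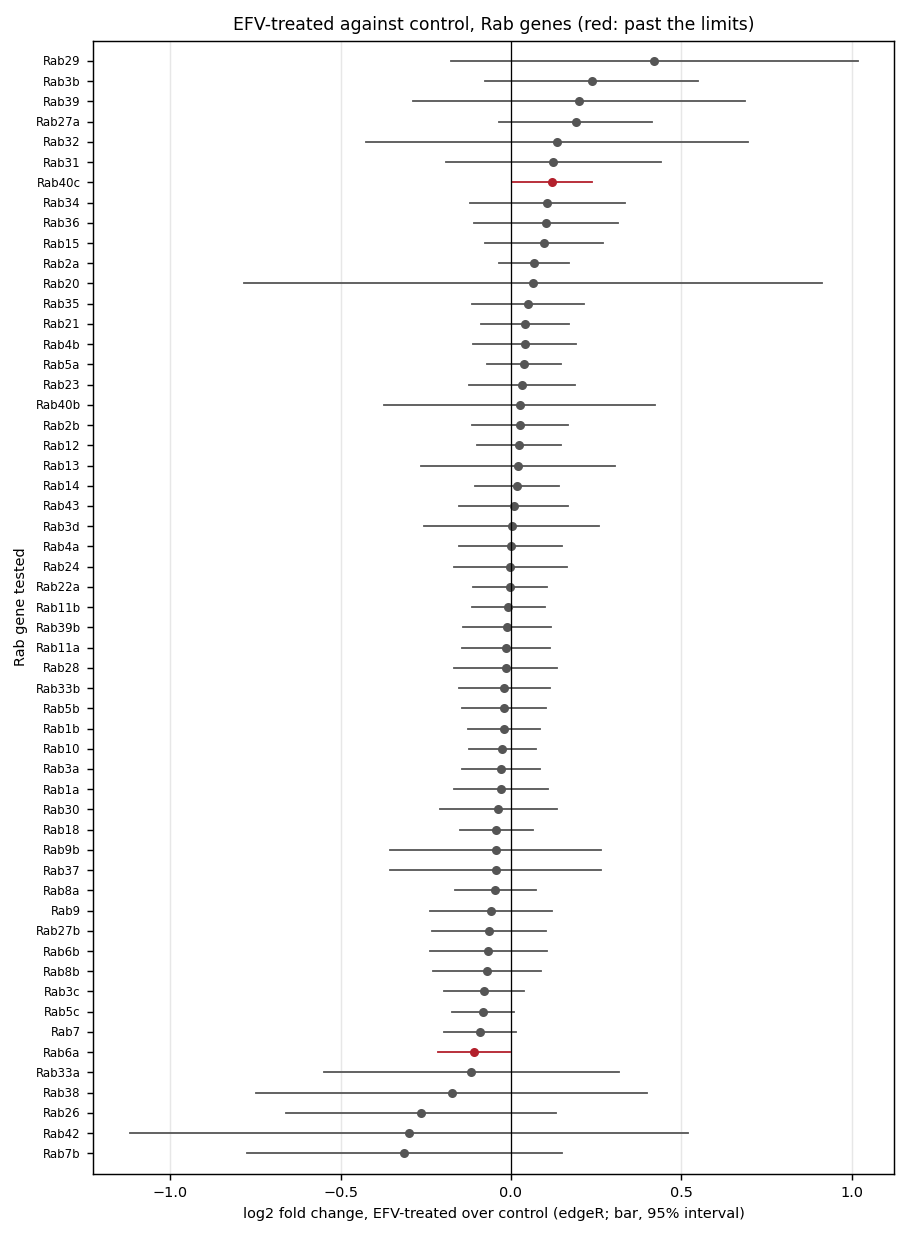
Log2 fold change of EFV over control for the 55 Rab genes tested (edgeR), with bars for the 95% interval, ordered by size. Rab40c and Rab6a, in red, are the 2 members past the limits, and their intervals end close to 0. The widest intervals belong to genes with few counts such as Rab42 and Rab20.

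Among the Rabs of the ER and Golgi, 6 of 15 tested were higher and 9 lower with EFV, and 1 passed the limits. That gene was Rab6a (Entrez 19346, chr7:100607575-100641268 on GRCm38), which controls retrograde traffic from endosomes and Golgi to the ER and the exit of secretory vesicles from the Golgi. It had 62.56, 63.51 and 60.25 FPKM in control and 58.68, 59.32 and 56.90 FPKM with EFV, from 4908, 4752 and 4679 and from 4585, 4602 and 4384 counts. Each EFV library lay below each control library, with EFV 3 the lowest and control 2 the highest in FPKM. The log2 fold change was -0.11 (SE 0.047, 95% interval -0.21 to -0.0017), with an unadjusted p of 0.0471 and an adjusted p of 0.999 by edgeR. An exact permutation test of 3 libraries against 3 cannot give a two-sided p under 0.10. Because RNA was measured in bulk tissue, fewer cells that hold a transcript and less of it per cell cannot be told apart, here and for the genes below.

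The call of Rab6a did not hold in every fit. With the RPE marker level as a covariate the log2 fold change was -0.08 and with the Y-linked level -0.10, and neither passed the limits, while with the lens level it was -0.13 and did. Without control 3, the library high in lens markers, it was -0.13 and past the limits. Without EFV 3, the library low in Y-linked genes, and without control 2, the library low in RPE markers, it was -0.08 and -0.09, both short of the limits. It was also short of them without control 1 (-0.11) or EFV 1 (-0.11), and past them without EFV 2 (-0.13). Of these libraries, EFV 1 had the highest Y-linked sum (69.84 FPKM) and control 1 the highest microglia sum (23.16 FPKM).

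Rab6a also shares sequence with a neighbour. Of the 50-base words of its transcript, 22.3% occurred in transcripts of another gene, mostly in Mrpl48, a mitochondrial ribosomal protein gene that overlaps it on the opposite strand, and whether the counting used strand is not stated. Mrpl48 had 33.72, 33.0 and 30.54 FPKM in control and 29.79, 26.12 and 33.65 FPKM with EFV, a log2 fold change of -0.14 (SE 0.089), with EFV 3 inside the control range. Reads of the overlap cannot be told apart without strand. The gene length that RSEM used for Rab6a was the same in all libraries, and its 2 listed transcripts were not analysed apart here.

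The neuronal paralog Rab6b (chr9:103111667-103185276) shared no 50-base word with any other gene. It had 60.78, 69.49 and 64.95 FPKM in control and 56.94, 64.12 and 67.65 FPKM with EFV. EFV 1 was the lowest library and control 2 the highest, and the groups overlapped (log2 fold change -0.07, SE 0.076). The sum of both Rab6 genes was 127.2 ± 5.13 FPKM in control and 121.2 ± 4.87 FPKM with EFV (SD, n = 3). The coding sequences of both genes are 624 bases long and 489 bases (78.4%) are identical, and the longest identical run is 14 bases. Their first 90 coding bases are shown with the differences in capitals.
Rab6a: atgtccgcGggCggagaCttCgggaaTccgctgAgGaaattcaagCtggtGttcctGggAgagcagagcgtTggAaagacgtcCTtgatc
Rab6b: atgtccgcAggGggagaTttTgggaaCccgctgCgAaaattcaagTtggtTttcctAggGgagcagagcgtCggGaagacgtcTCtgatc
The differences are scattered over the whole stretch.

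**Figure D4:**
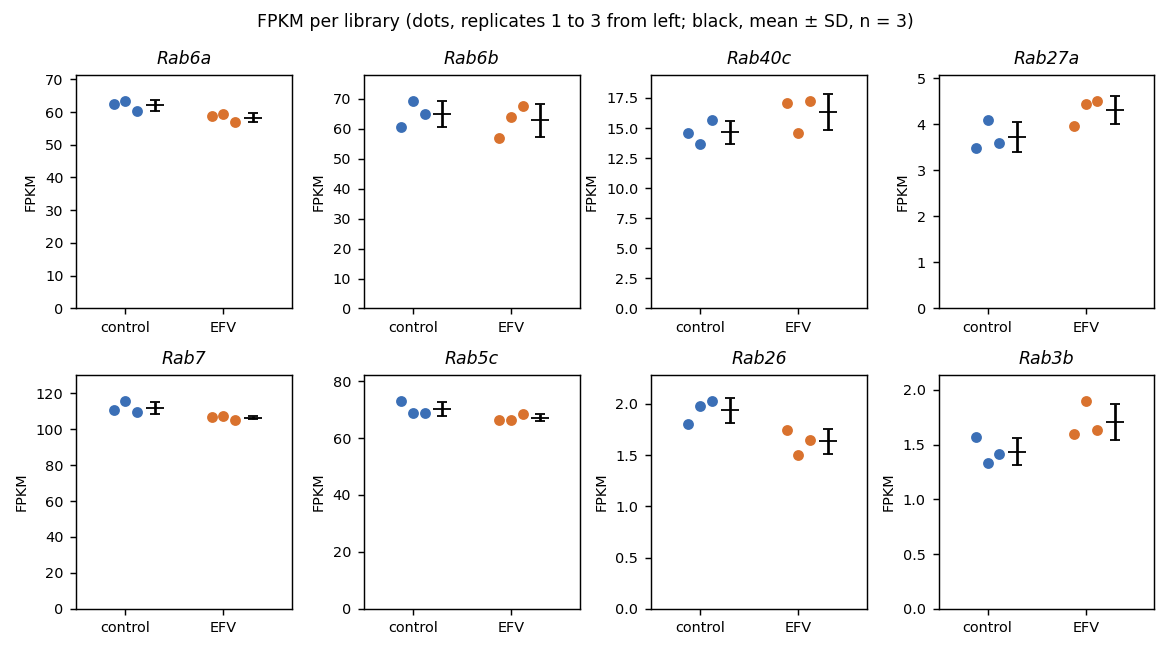
FPKM of 8 Rab genes in each control (blue) and EFV (orange) library, with replicates 1 to 3 from left to right and mean ± SD (n = 3) in black, on axes that start at 0. Rab6a, Rab7, Rab5c and Rab26 have all EFV libraries below the controls, Rab3b has them above, and Rab6b, Rab40c and Rab27a overlap.

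The other abundant ER and Golgi Rabs did not pass the limits. Rab2a, which acts between the Golgi and the ER and in delivery to lysosomes, had 75.77, 72.86 and 72.92 FPKM in control and 79.20, 73.94 and 81.85 FPKM with EFV. EFV 1 and 3 were above the controls while EFV 2 lay among them (log2 fold change 0.07, SE 0.046). Rab1b had 70.94, 67.98 and 68.69 FPKM in control and 70.34, 64.44 and 72.30 FPKM with EFV. Rab1a, its partner in transport from the ER to the Golgi, had 61.01, 62.71 and 54.62 FPKM in control and 61.41, 57.95 and 57.48 FPKM with EFV. For both the groups overlapped, with log2 fold changes of -0.02 (SE 0.047) and -0.03 (SE 0.061). Rab33a, an X-linked Golgi Rab, had one of the largest spreads of the family (18.6%): it was at 6.47, 5.23 and 4.20 FPKM in control and 4.32, 4.50 and 6.04 FPKM with EFV, so the high libraries were control 1 and EFV 3. Rab39 had 0.92, 1.13 and 0.73 FPKM in control and 0.92, 1.06 and 1.25 FPKM with EFV, a spread of 18.3%, and the groups overlapped. In EFV 3, the library low in Y-linked genes, the other X-linked members Rab39b, Rab9 and Rab9b had 9.07, 16.38 and 1.80 FPKM, each within or at the edge of the range of the other libraries (9.07 to 9.76, 14.61 to 17.37 and 1.55 to 2.02 FPKM).

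Groups that do not overlap were counted for all genes as a further description, on counts scaled to library depth. This held for 5 members, Rab6a, Rab7, Rab5c and Rab26 lower and Rab3b higher, which is 9.09% of the 55 against 8.14% of all genes (3.95% higher and 4.18% lower), again a share near the background. Rab5c and Rab7 are the abundant ones beside Rab6a.

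Of the Rabs of early and recycling endosomes, 8 of 14 tested were higher and 6 lower, and none passed the limits. Rab5c, a Rab of early endosome fusion, had 73.11, 68.70 and 68.96 FPKM in control and 66.53, 66.40 and 68.65 FPKM with EFV. Its groups were just apart, with EFV 3 within 0.05 FPKM of control 2 (log2 fold change -0.08, SE 0.041). The related Rab5a and Rab5b gave 0.04 (SE 0.048) and -0.02 (SE 0.054), and the sum of the 3 genes overlapped between the groups. Rab14, active between the Golgi and endosomes, had 62.16, 64.75 and 63.64 FPKM in control and 68.12, 65.70 and 61.18 FPKM with EFV, so EFV 1 and EFV 3 marked both ends of the range. Rab11a, the recycling Rab that also serves transport to the cilium, had 29.17, 27.20 and 28.72 FPKM in control and 28.10, 30.30 and 26.77 FPKM with EFV. Its groups overlapped, with a log2 fold change of -0.01 (SE 0.057), and Rab11b gave -0.01 (SE 0.047).

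The 8 Rabs of late endosomes, lysosomes and autophagy gave 2 higher and 6 lower, none past the limits. Rab7 (chr6:87999106-88045270) had 110.7, 115.8 and 109.5 FPKM in control and 106.9, 107.2 and 105.4 FPKM with EFV, so that the EFV libraries lay together below the controls (log2 fold change -0.09, SE 0.047). Of its 50-base words 27.8% were shared, mostly with a processed pseudogene, Rab7-ps1, which the libraries do not list. Its relative Rab7b was much lower, at 0.41 to 0.50 FPKM in control and 0.33 to 0.42 FPKM with EFV, with 36 to 54 counts per library. Rab29, a lysosome and Golgi Rab that recruits the kinase Lrrk2, had 32, 29 and 43 counts in control and 41, 39 and 62 counts with EFV, a mean of 1.24 and 1.69 FPKM. EFV 3 was the highest and control 3 lay above EFV 1 and 2, so the largest fold change of the family (log2 0.42, SE 0.26) came with overlapping groups and the largest spread of the members tested (28.1%).

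The 8 tested Rabs of regulated secretion gave 3 higher and 5 lower, none past the limits. Rab3a, at the values above, gave a log2 fold change of -0.03 (SE 0.051), and EFV 3 was the highest library of all. Rab3b, a minor form, had 1.57, 1.33 and 1.41 FPKM in control and 1.60, 1.90 and 1.63 FPKM with EFV, all above the controls by as little as 0.03 FPKM (log2 fold change 0.24, SE 0.14). Rab26, linked to secretory granules and to autophagy of synaptic vesicles, had 1.80, 1.98 and 2.03 FPKM in control and 1.75, 1.50 and 1.65 FPKM with EFV, all below (log2 fold change -0.26, SE 0.18). Both rest on few counts, 102 to 151 per library for Rab3b and 50 to 68 for Rab26. Rab3c stood at 10.96, 12.04 and 10.91 FPKM in control and 10.81, 10.94 and 10.72 FPKM with EFV, where EFV 2 was just above control 3.

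Rab27a, which ties melanosomes to the motor myosin Va in melanocytes of the skin and serves exosome and granule release elsewhere, had 3.49, 4.10 and 3.60 FPKM in control and 3.96, 4.45 and 4.52 FPKM with EFV. Control 2 was above EFV 1, so the groups overlapped (log2 fold change 0.19, SE 0.099). Without control 2 and, separately, without EFV 1, Rab27a was the 1 member past the limits. Control 2 was the library lowest in RPE markers and the control highest in Rab27a. The RPE list itself had 12 of 14 tested genes higher with EFV and a median log2 fold change of 0.36. With the RPE level as a covariate Rab27a was not past the limits, nor was it in the main fit, so this fit cannot show a change of call. The part of RPE content in the Rab27a values was not tested. Of its partners in melanosome transport, Myrip gave 0.03 (SE 0.043) and Myo5a 0.01 (SE 0.050). Mlph, at 0.06 to 0.24 FPKM, gave 0.18 (SE 0.48). Myo7a, another myosin gene, is listed by the paper as differentially expressed and lower with EFV. It was not among the regulators and effectors examined below, so the partners given here are not the full set.

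The melanosome Rabs were rare. Rab38, which brings the enzymes of pigment synthesis to immature melanosomes, had 1.39, 0.93 and 0.95 FPKM in control and 0.89, 1.16 and 0.87 FPKM with EFV. Its relative Rab32 had 0.53, 0.43 and 0.43 FPKM in control and 0.47, 0.56 and 0.52 FPKM with EFV. In both, the groups overlapped, and control 1 and EFV 2 were the highest library of their group. The log2 fold changes had opposite signs, -0.17 (SE 0.25) and 0.14 (SE 0.25).

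Of the 6 Rabs of exocytosis, polarity and the cilium 2 were higher and 4 lower, none past the limits. Rab28, which takes part in the shedding of cone outer segment discs and is a gene of cone-rod dystrophy, had 82.17, 77.77 and 82.88 FPKM in control and 83.95, 86.13 and 72.88 FPKM with EFV. EFV 2 was the highest and EFV 3 the lowest, and the log2 fold change was -0.02 (SE 0.067). Rab8a had 24.40, 25.02 and 23.05 FPKM in control and 24.27, 23.46 and 23.33 FPKM with EFV, and its groups overlapped as well (-0.05, SE 0.053). Rab10, a relative of Rab8a in exocytosis, was among the steadiest, with 30.65 to 32.43 FPKM in control and 30.91 to 31.89 FPKM with EFV. Rab23, a regulator of Hedgehog signalling at the cilium, had 4.40 to 4.93 and 4.79 to 4.89 FPKM.

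The 2 members of the Rab40 branch encode adaptors of a ubiquitin ligase. Rab40c (Entrez 224624, chr17:25882114-25919714) had 14.55, 13.70 and 15.66 FPKM in control and 17.12, 14.61 and 17.29 FPKM with EFV, from 1196, 1109 and 1222 and from 1349, 1217 and 1344 counts. EFV 1 and 3 were above the controls while EFV 2 was below control 3 in FPKM. The log2 fold change was 0.12 (SE 0.052, 95% interval 0.0036 to 0.24), with an unadjusted p of 0.0446 and an adjusted p of 0.999 by edgeR. Rab40c was not past the limits with DESeq2, with limma at either pseudocount, with RPE or Y-linked markers as covariates, or without control 1, control 2, EFV 1 or EFV 3. Rab40b was lower in level, at 1.71 to 2.00 and 1.64 to 2.2 FPKM, with a log2 fold change of 0.03 (SE 0.18).

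The genes that load, switch and read Rabs were taken as a list of 154, of which 151 were tested: 8 of the membrane cycle (escort, prenylation and GDI), 46 GEFs, 36 GAPs and 61 effectors. Of these, 78 were higher and 73 lower with EFV, with a median log2 fold change of 0.00 and a range of -0.38 to 0.33. A single gene was past the limits, 0.662% against the background of 3.01%. It was Trappc1, a subunit of the TRAPP complexes that activate Rab1 and Rab11, with 55.14, 52.30 and 47.59 FPKM in control and 44.32, 43.75 and 49.00 FPKM with EFV. EFV 1 and 2 lay below the controls while EFV 3 was above control 3 (log2 fold change -0.20, SE 0.072, unadjusted p of 0.0228 and an adjusted p of 0.999 by edgeR). Trappc1 was not past the limits with RPE markers as a covariate, or without control 1, control 2, EFV 1 or EFV 2.

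Extraction, escort and prenylation genes did not pass the limits. Gdi2, a GDI found in most tissues, had 83.4 ± 0.362 and 83.4 ± 1.58 FPKM in control and EFV (SD, n = 3). Chm had 8.67 to 9.48 FPKM in control and 9.47 to 9.73 FPKM with EFV (log2 fold change 0.05, SE 0.054). Its relative Chml had 1.08, 0.75 and 1.19 FPKM in control and 1.22, 1.15 and 1.47 FPKM with EFV, a log2 fold change of 0.33 (SE 0.18), with EFV 2 below control 3. The prenyl transferase subunits Rabggta and Rabggtb gave -0.02 (SE 0.073) and -0.03 (SE 0.067).

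Regulators and effectors of the named Rabs were as close. Ric1 and Rgp1, the exchange factor of Rab6, gave log2 fold changes of 0.02 (SE 0.049) and 0.02 (SE 0.051), and the Rab6 effector Bicd2 gave 0.01 (SE 0.052). For Rab3, the exchange factor Madd gave -0.01 (SE 0.048), the GAP subunit Rab3gap1 -0.06 (SE 0.041) and the effectors Rph3a and Rims2 -0.05 (SE 0.060) and 0.05 (SE 0.050). Eea1, the tether of Rab5, had 6.99, 7.71 and 7.35 FPKM in control and 7.97, 8.04 and 7.88 FPKM with EFV, a log2 fold change of 0.10 (SE 0.052). Groups without overlap in scaled counts were found for 8 of the 151 (5.30% against 8.14%): Rin1, Rab3gap1, Lrrk2, Exoc6 and Exoc6b were lower and Tbc1d15, Tbc1d17 and Rab11fip4 higher. Of these Lrrk2, the kinase that phosphorylates Rabs, had 1.22, 1.03 and 1.09 FPKM in control and 0.92, 0.99 and 0.99 FPKM with EFV (log2 fold change -0.22, SE 0.10). In FPKM, by contrast, Rab3gap1, Exoc6b and Rab11fip4 overlapped between the groups, and Eea1 did not.

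**Figure D5:**
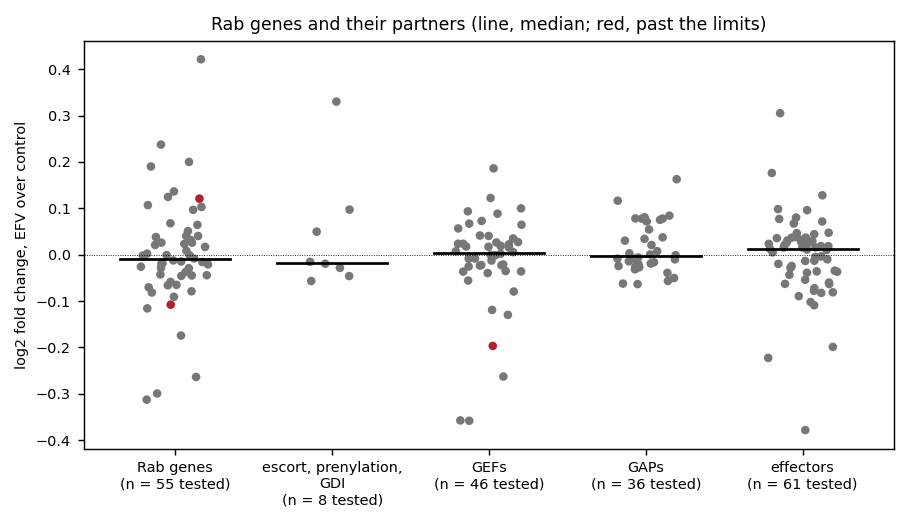
Log2 fold change of EFV over control (edgeR) for the 55 Rab genes and for 8 membrane cycle genes, 46 GEFs, 36 GAPs and 61 effectors. Each dot is 1 gene, black lines are medians and red dots are past the limits. The medians of all classes lie close to 0, and the red dots are Rab40c, Rab6a and Trappc1.

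Some members cannot be told from other genes with certainty. While 34 members shared no 50-base word with any other gene, 11 shared more than 10% of theirs. The largest shares were 90.3% for Rab43 and 80.3% for Rab4b, each with an overlapping gene on the same strand, and 74.2% for Rab2b, with an overlapping transcript on the opposite strand. None of these partners is among the genes listed in the libraries. For Rab24, an autophagy Rab, 43.5% of the words lay in Prelid1, on the opposite strand and far more abundant, with 127.7 to 147.2 FPKM against 17.02 to 20.28 FPKM of Rab24. Prelid1 had a log2 fold change of -0.11 (SE 0.055). Those of the 4 Rab genes were between 0.00 and 0.04 on the log2 scale, with standard errors of 0.062 to 0.074.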

How the data were processed

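RNA of retina plus RPE was sequenced in 3 control and 3 EFV pools after selection of polyadenylated RNA, per the labels. The authors aligned filtered reads to mm10 with Bowtie2 2.2.5 and made an expected count per gene with RSEM 1.2.12, and they deposited these estimated counts without normalization. The deposited FPKM values are, per the file headers, those of RSEM, scaled by the authors to gene length and library depth and rounded. RSEM divides reads that fit several genes among them. HISAT2 2.0.4 is also listed in the submitters' processing notes, with no role, and strandedness of the counting is not given in the sources used here. Totals per library are in the report, and at this depth counting error weighs most on genes of few counts.

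Expected counts were rounded. The 15537 genes that reached 10 counts in 3 or more of the 6 libraries entered the quasi-likelihood fit of edgeR 4.0.16 (R 4.3.3, TMM scaling factors 0.9842 to 1.014, group as the only term), two-sided, with Benjamini-Hochberg adjustment over all of them; p-values in the text are of this model unless another tool is named. Intervals are 95% and are on the log2 scale of scaled counts, while levels are FPKM; a gene not listed in a library was taken as 0 there. The size limit was 7%. Alternatives were DESeq2 1.42.0, limma 3.58.1 on log2(FPKM + 0.1) and log2(FPKM + 1), which understates changes of low genes, a Poisson model, other scalings and filters, marker covariates, the replicate number as a block, and leaving out each library. The methods were tested on simulated data whose changes were far larger than those of the Rab genes past the limits. That test used adjusted p, so it does not cover calls of small changes at an unadjusted p.

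The members, the roles, the list of 154 Rab regulators and effectors and the marker lists were chosen with earlier results of these data known. Values in every library were given for Rab6a and Rab6b, the 10 members of highest mean FPKM, members past the limits or without overlap (by scaled counts), members of known use in photoreceptors or RPE (Rab3a, Rab8a, Rab11a, Rab27a, Rab28, Rab32 and Rab38), and the 5 of largest coefficient of variation at 1 FPKM or more; of the regulators, those past the limits. Chml, Eea1, Lrrk2, Rab3c and the other regulators given with values were chosen after their values were seen. All 59 members had a coding transcript in GENCODE M21 (GRCm38, the same build as mm10); gene positions are of RefSeq on GRCm38. Rab18 and Rab27b were counted in the sequence classes and their sequences are not printed. Sharing was counted over words of 50 bases of 1 transcript per member. Protein sequences were not used here, nor were the other data types of the study. Some items are not reported here.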

Additional observations from a re-analysis of the deposited data

How the results depend on the processing

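The count of Rab genes past the limits (2) was 1 with DESeq2 (Rab6a), 5 with the Poisson model, 0 with the RPE or the Y-linked covariate, 0 with limma at both pseudocounts, and 1 (Rab40c) with total count or upper quartile scaling. Over all genes the share past the limits was 1.73% with DESeq2, 14.8% with the Poisson model, 2.6% and 3.39% with the covariates, 3.15% and 3.18% with limma, and 2.88% and 2.9% with the scalings. The count of Rab genes ran from 0 to 2 when a library was left out: 0 without control 1 or EFV 3, 1 (Rab27a) without control 2 or EFV 1, and 2 without control 3 or EFV 2. Rab6a kept its sign in all 19 alternatives and missed the limits in 10 of them: its log2 fold change (-0.1078) was -0.07786 with the RPE and -0.09708 with the Y-linked covariate, -0.09097 and -0.08963 with limma (pseudocounts 0.1 and 1, under the size limit), -0.09234 with total count and -0.1052 with upper quartile scaling, and -0.131 to -0.08494 with a library left out (past the limits only without control 3 or EFV 2). The cause of these moves was not tested. Machinery genes past the limits (1, Trappc1) numbered 8 with the Poisson model, 3 with the RPE covariate, and 2 with the lens covariate or total count scaling. With a library left out they numbered 0 to 2 (0 without control 1, EFV 1 or EFV 2). Trappc1 was not among the 3 with the RPE covariate (Eea1, Lrrk2 and Trappc6a), and the 1 gene without control 2 was Eea1. Rab genes without overlap (5) numbered 8 to 12 with a library left out, where 3 libraries meet 2 and 16.0 to 19.0% of all genes do not overlap. The median log2 fold change of the Rab genes stayed within -0.01751 to 0.002465 with a library left out. The log2 ratio of the family sum (-0.003192) was -0.02303 on counts per library depth in place of FPKM and -0.01385 to 0.006306 with a library left out. Over all genes, the split past the limits was 228 higher and 239 lower, and 288 and 159 with total count scaling.

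Replicate numbers share no stated origin, and same-numbered libraries correlated by 0.125, 0.083 and 0.099 in their deviations from the group means, so they were not taken as pairs, although each library correlated best with its own number. With the replicate block, 2 Rab genes (Rab40c and Rab6a) and 2 machinery genes (Chml and Trappc1) were past the limits, and Rab6a gave -0.1077, past the limits.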

Other observations

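The gene length that RSEM used, an average over transcripts weighted by their estimated share, differed by less than 0.5 bases between the libraries that list the gene for 39 of the 59 members and overlapped between the groups for 16. It did not overlap for 4, all among the 55 tested, against 4.63% of 15451 tested genes with a length in all libraries (2.22% higher and 2.41% lower). It was higher in all EFV than in all control libraries for Rab7b (4450 to 4466 bases in control and 4498 bases with EFV) and for Rab27b (6917 to 6931 and 6980 to 7050 bases). It was lower for Rab36 (3640 to 3679 and 3498 to 3639 bases) and, by at most 3 bases, for Rab7. Rab36, a Golgi Rab, was higher with EFV in each library in FPKM (2.50 to 2.63 and 2.71 to 3.04) but overlapped in scaled counts. The length of Rab40c, one of the members past the limits, ran from 3259 to 3504 bases and overlapped. These lengths are descriptions with no test.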
